A study of Rattus norvegicus with 8 samples.

Results

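The genes described here repair double-strand breaks and interstrand crosslinks in DNA, or carry the signal that such damage is present. They were taken by name from a list of 37 symbols, and all 37 had a named row in the count table and passed the filter on low counts, among 13250 genes tested and 32883 gene rows in all. By role, 7 belong to end joining, 2 protect broken ends, 3 form the break sensing complex, 4 signal from chromatin around a break, 4 are checkpoint kinases, 3 act in end resection and dissolution, 10 in homologous recombination and 4 in the Fanconi anaemia pathway. They were measured by RNA-seq in primary nucleus pulposus (NP) cells, the cells of the gelatinous core of the intervertebral disc, from adult Sprague Dawley rats. Sirt6-KD cells (libraries S5 to S8) had been transduced with a lentiviral mixture of ShSirt6 clones, and Sirt6-Ctrl cells (S1 to S4) with lentiviral ShCtrl. Cells of both groups went through puromycin selection and grew in DMEM with serum, so both groups are transduced, selected cultures and no untransduced group was compared. Each group had n = 4 libraries, described as independent experiments on cells of 4 rats. SIRT6 is a nuclear NAD-dependent deacylase that removes acetyl groups from histone H3 and is itself recruited to DNA breaks.

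A broken chromosome can be rejoined in different ways. In non-homologous end joining the Ku heterodimer (Xrcc5 and Xrcc6) caps the ends, recruits the kinase DNA-PKcs (Prkdc) and the nuclease Artemis (Dclre1c), and the ends are sealed by the Xrcc4, Lig4 and Nhej1 complex in any phase of the cell cycle. Homologous recombination instead copies a sister chromatid, so it works after replication and needs the ends to be cut back to single strands, which Tp53bp1 and Rif1 oppose and Brca1 favours. The Fanconi anaemia pathway unhooks strands that are crosslinked to each other, with the monoubiquitinated Fancd2 and Fanci pair at its centre, and hands the break it makes to recombination. Most recombination and Fanconi genes are known to be transcribed mainly in cycling cells.

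Knockdown was checked on Sirt6 itself, which lay between 47.6 and 56.4 CPM (counts scaled to library size, normalised by the trimmed mean of M values) in Sirt6-Ctrl and between 19.2 and 21.8 CPM in Sirt6-KD, with a log2 fold change of −1.35 ± 0.13 (SE). Libraries held 31994838 to 40124813 counts. The labels name NP cells, whose markers were only partly present: 6 of 11 NP and chondrocyte-like markers were tested (Krt18, Krt19, T, Shh and Col2a1 had no named row), with a summed level of 117 to 172 CPM in Sirt6-Ctrl and 121 to 150 CPM in Sirt6-KD. Of the 10 fibroblast and annulus markers 9 were tested, with sums of 14880 to 27990 against 8923 to 18830 CPM, nearly all of it Col1a1. No endothelial marker of 5 was tested and no erythroid marker of 4 had a named row, and 3 of 6 leukocyte markers were tested at a summed 11.92 to 29.72 against 14.96 to 23.85 CPM. Krt8, Car3, Col3a1, Postn and Scx fell in Sirt6-KD. Of the 18 markers tested 14 had a negative and 4 a positive log2 fold change. The positive ones were Cdh2, Sox9, Pdgfra and Cd68, and none of these passed the test. Cdh2 alone made up 75.5 to 91.5 CPM of the NP sum in Sirt6-KD. The part of these markers in the results below was not tested. In such bulk samples fewer cells of a type and less RNA per cell cannot be told apart.

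Sirt6-Ctrl libraries S1 and S2 stood apart from the other 6. Spike-in RNA took 6.27% of the counts in S1 and 9.80% in S2, against 2.97% to 3.08% in S3 and S4 and 2.15% to 2.47% in Sirt6-KD. Of the genes tested, 626 had 3 counts or fewer in S1 and 1410 in S2, against 92 to 252 in each of the other 6 libraries. In S2, 8 of the 37 repair genes lay below 1 CPM, beside 16.9% of all genes tested in that library, and 5 of these 8 were above 1 CPM in all of the other 7 libraries. Brca1 had 83, 3, 131 and 237 reads in S1 to S4, Palb2 54, 3, 51 and 109, Brca2 244, 6, 127 and 101, and Nhej1 202, 8, 85 and 137. Rad54l went the other way, with 3 reads in S1 and 177 in S2. S2 was the lowest of the 8 libraries for 14 of the repair genes and the highest for 9. The log2 fold change without S1 and S2 is given below for each repair gene.

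**Figure D1:**
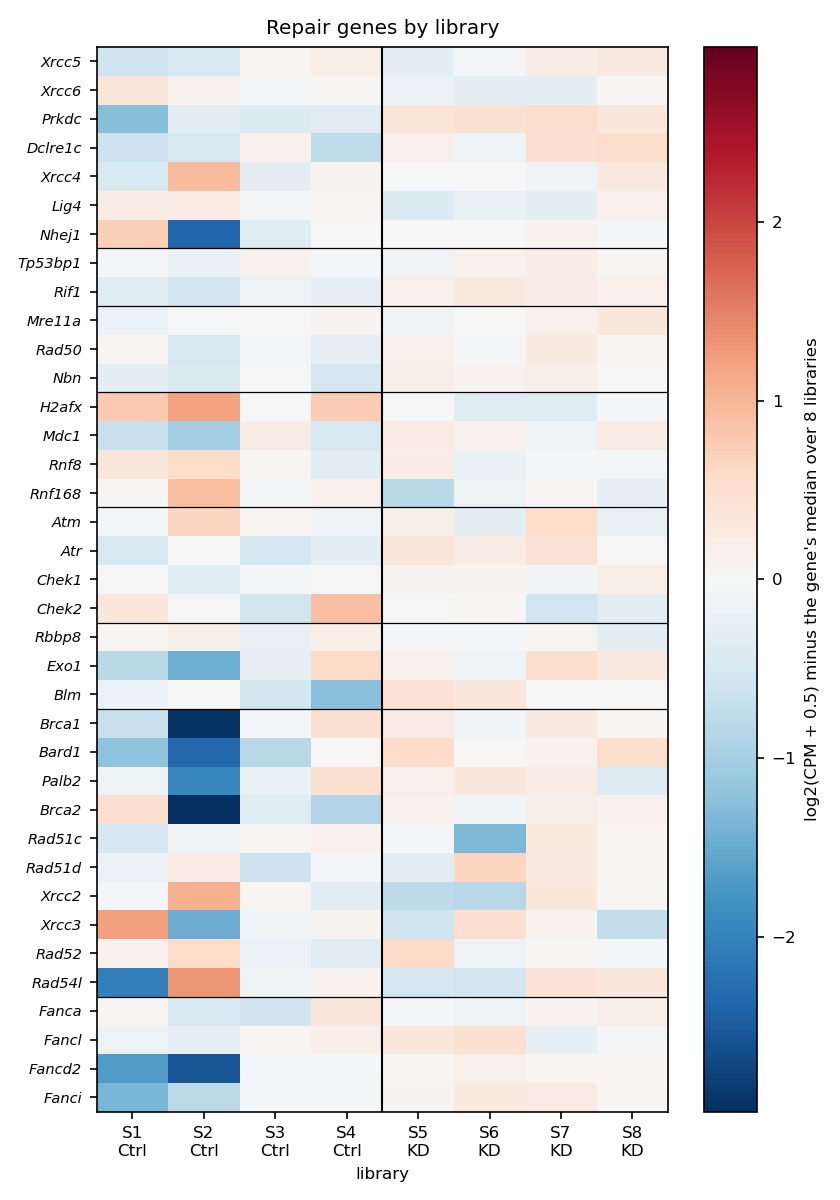
Each row is 1 repair gene and each column 1 library, coloured by log2(CPM + 0.5) minus the median of that gene over the 8 libraries, with black lines between roles. S2 carries most of the deep blue, in Nhej1, Exo1, Brca1, Bard1, Palb2, Brca2, Xrcc3 and Fancd2, which are the 8 genes below 1 CPM there.

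Across the 37 genes 1 was called higher in Sirt6-KD (Prkdc) and 1 lower (H2afx), where called means that the adjusted p was under 0.05 and the change over 1.5-fold. Over all genes tested 8.02% were called higher and 10.7% lower, and both counts of repair genes sat below those shares, a difference that was not tested. With the fold threshold left off, 3 repair genes passed (Prkdc, Rif1 and H2afx), against 21.9% of all genes. All Sirt6-KD libraries lay above all Sirt6-Ctrl libraries for 6 repair genes (Prkdc, Rif1, Atr, Blm, Fancd2 and Fanci), against 14.8% of all genes, and below them for 0, against 15.6%. The log2 fold change was positive for 24 and negative for 13, with a median of 0.19 beside −0.02 over all genes. The precision was slightly poorer than usual, with a median SE of 0.31 for the repair genes and 0.27 for all genes. Sirt6-Ctrl libraries varied more than Sirt6-KD libraries for 30 of the 37 (81.1%), close to the 86.0% of all genes.

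Scaling decides the sign of a small change here. When each library was scaled to its spike-in total, the median of all genes moved to 0.94 and all 37 repair genes turned positive, and 10 of them lay below the median of all genes. No repair gene was called on that scale. Directions below are therefore relative to the bulk of the transcriptome.

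**Figure D2:**
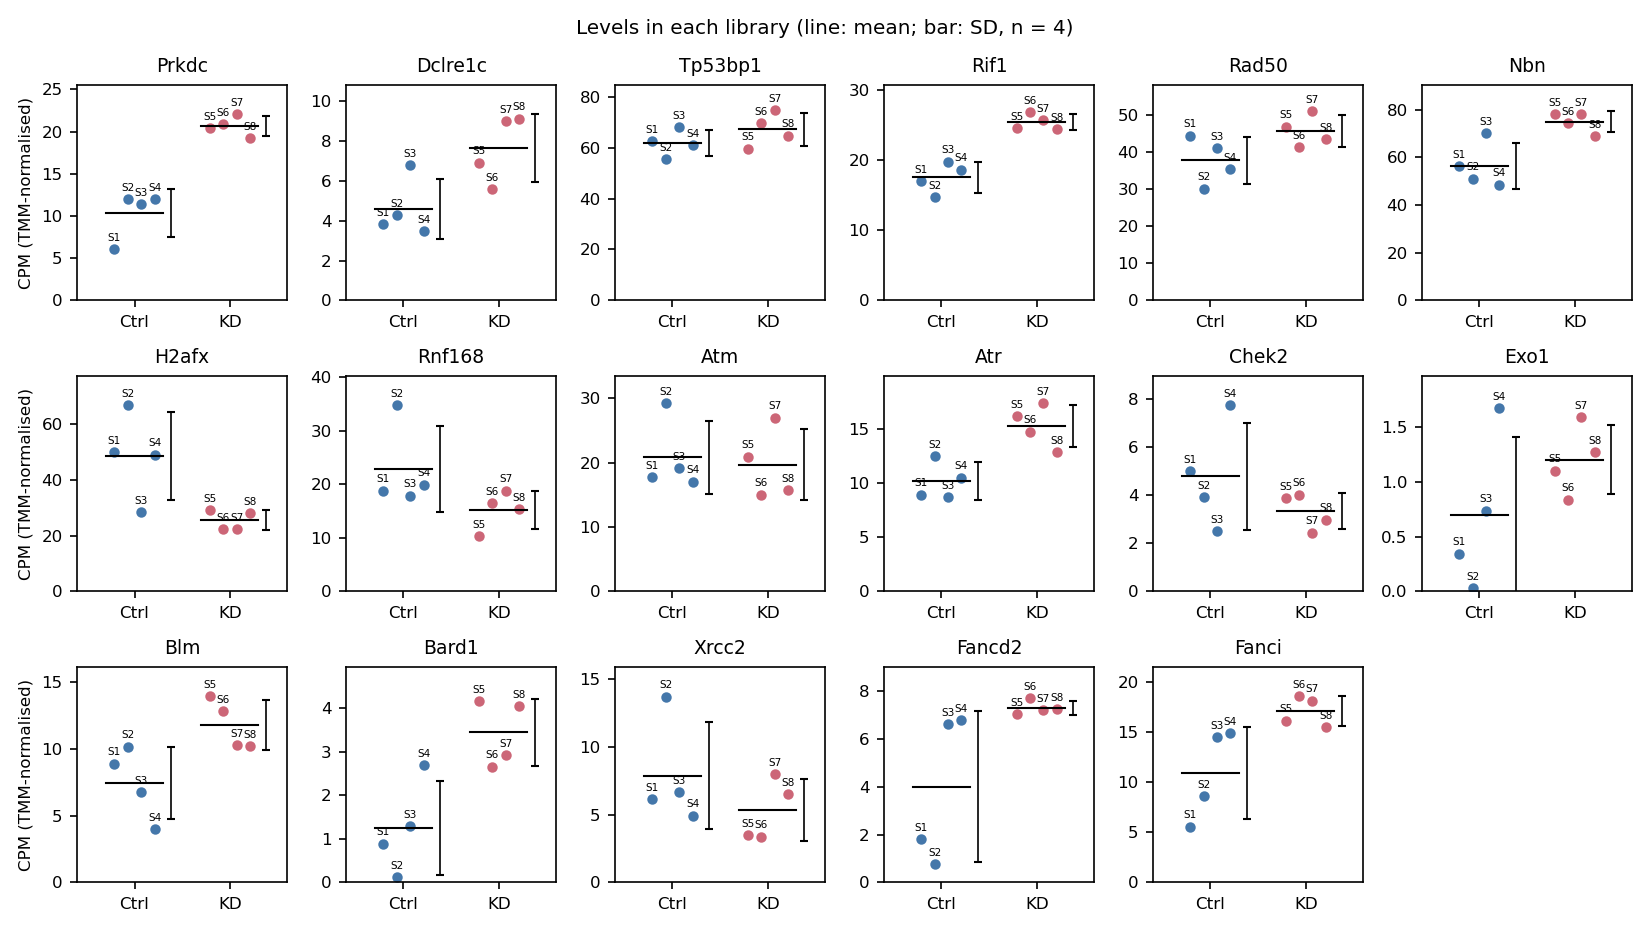
Levels in CPM, from 0, of the 17 repair genes given in full, 1 panel per gene and 1 labelled point per library, with a line at the group mean and a bar of ±1 SD (n = 4) beside it (for Exo1 the bar is cut at 0). Prkdc, Rif1, Atr, Blm, Fancd2 and Fanci have Sirt6-KD points that all lie above the Sirt6-Ctrl points.

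Prkdc, which encodes the catalytic subunit of the DNA-dependent protein kinase that holds broken ends together and licenses their processing, rose 1.996-fold in Sirt6-KD. Its level was 6.03, 11.97, 11.36 and 11.97 CPM in S1 to S4 and 20.4, 20.9, 22.0 and 19.2 CPM in S5 to S8. The lowest Sirt6-KD library stood well clear of the highest Sirt6-Ctrl library, and S1 alone was low among the controls. Its mean went from 10.3 ± 2.88 to 20.6 ± 1.17 CPM (SD, n = 4), a log2 fold change of 0.997 ± 0.244 (SE) with an adjusted p of 0.0186 by edgeR's quasi-likelihood test. Without S1 and S2 the log2 fold change was 0.83 with an adjusted p of 0.0144. With spike-in scaling it was 1.90, which is 0.96 above the median of all genes, at an adjusted p of 0.0715. A correction of each library for gene span took it to 0.29, 0.46 above the median of all genes, at an adjusted p of 0.492. Prkdc spans 217548 bases in RefSeq's GRCr8 annotation, more than any other of the 37 but Xrcc4, and leaving out S5, S6 or S7 moved the adjusted p to between 0.0545 and 0.0611 at log2 fold changes of 0.964 to 1.002.

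None of the other 6 end joining genes passed the test. Dclre1c, the nuclease that DNA-PKcs activates, was at 3.82, 4.30, 6.80 and 3.47 CPM in Sirt6-Ctrl and at 6.92, 5.59, 8.99 and 9.14 CPM in Sirt6-KD. Its groups overlapped in S3 and S6 only, and the log2 fold change of 0.74 ± 0.34 did not pass (edgeR adjusted p = 0.140), and was 0.59 without S1 and S2. Of the Ku genes, Xrcc5 ranged from 18.6 to 32.3 CPM in Sirt6-Ctrl and 23.3 to 33.9 in Sirt6-KD (log2 fold change 0.21, 95% interval −0.28 to 0.70), and Xrcc6 from 27.6 to 36.2 and from 22.8 to 28.9 CPM (−0.30, interval −0.66 to 0.05). Neither interval reached a 2-fold change. Both were negative without S1 and S2, at −0.07 for Xrcc5 and −0.16 for Xrcc6. Lig4, the ligase, had a log2 fold change of −0.31 (interval −0.75 to 0.13), and its scaffold Xrcc4 one of −0.13 (interval −0.84 to 0.58), with S2 at 21.1 CPM against 7.76 to 13.2 in the other libraries. Nhej1, the bridging factor XLF, was tight in Sirt6-KD at 3.26 to 3.62 CPM and ran from 0.25 in S2 to 5.80 in S1, which left an interval of −1.34 to 1.74 around a log2 fold change of 0.20. The log2 fold changes without S1 and S2 were −0.17 for Lig4, 0.16 for Xrcc4 and 0.24 for Nhej1, so that of Xrcc4 turned.

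Of the genes that protect ends from being cut back, Rif1 passed the test without reaching the fold threshold. Rif1, an effector of 53BP1 that also sets replication timing, was at 17.0, 14.8, 19.8 and 18.6 CPM in Sirt6-Ctrl and at 24.6, 26.9, 25.7 and 24.4 CPM in Sirt6-KD. The groups did not overlap, and the log2 fold change was 0.53 ± 0.16 with an adjusted p of 0.0420 by edgeR. Without S1 and S2 it was 0.41, at an adjusted p of 0.0859, and the span correction took it to 0.22 (adjusted p = 0.364 by edgeR). With 1 library left out the adjusted p ran from 0.0269 to 0.129, and stayed below 0.05 only without S2 or S3. Tp53bp1, which recruits Rif1 to breaks, was at 62.5, 55.5, 67.9 and 60.9 CPM against 59.7, 69.7, 74.7 and 64.7 CPM. These values interleave, and its log2 fold change of 0.12 ± 0.13 had the smallest SE of the 37 (interval −0.16 to 0.41), and was 0.07 without S1 and S2.

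The break sensing complex of Mre11a, Rad50 and Nbn binds ends early, tethers them and activates ATM. Nbn, its signalling subunit, was at 56.4, 51.1, 70.1 and 48.5 CPM in Sirt6-Ctrl and at 78.1, 74.3, 78.2 and 68.9 CPM in Sirt6-KD. Only S3 reached into the Sirt6-KD range, and the log2 fold change of 0.41 ± 0.14 stayed short of the threshold (edgeR adjusted p = 0.0672). Rad50, the coiled-coil tether, was at 44.5, 30.2, 41.2 and 35.5 against 47.0, 41.4, 51.0 and 43.7 CPM, with a log2 fold change of 0.27 ± 0.16. Mre11a, the nuclease, ranged from 21.5 to 25.9 CPM and from 22.9 to 30.7 CPM (0.12, interval −0.24 to 0.48). All 3 subunits had positive values and none passed. They were 0.35 for Nbn, 0.26 for Rad50 and 0.07 for Mre11a without S1 and S2.

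H2afx was the repair gene called lower. It encodes the histone variant H2AX, whose phosphorylated tail marks the chromatin around a break and anchors Mdc1. It was at 49.9, 66.8, 28.4 and 48.9 CPM in S1 to S4 and at 29.0, 22.4, 22.4 and 28.0 CPM in S5 to S8. S3 lay among the Sirt6-KD libraries, so the groups overlapped, and the other 3 controls were well above them. The mean went from 48.5 ± 15.7 to 25.5 ± 3.57 CPM, a log2 fold change of −0.93 ± 0.24 with an adjusted p of 0.0218 by edgeR. The call was lost without S1 and S2 (−0.59, adjusted p = 0.110 by edgeR). It was also lost without S1, S5, S6 or S7 alone, with adjusted p from 0.0508 to 0.0722 at log2 fold changes of −0.8736 to −0.9995, and after the span correction (−0.69, adjusted p = 0.05004 by edgeR). Spike-in scaling turned the sign, to 0.20, which is −0.75 relative to the median of all genes on that scale.

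The 250 bases before the start of H2afx (listed by RefSeq as H2ax; GRCr8 chr8:53568468-53568717, plus strand) are shown because H2afx was called, with CCAAT on either strand, the letters that the factor NF-Y is known to bind, in capitals:
H2afx: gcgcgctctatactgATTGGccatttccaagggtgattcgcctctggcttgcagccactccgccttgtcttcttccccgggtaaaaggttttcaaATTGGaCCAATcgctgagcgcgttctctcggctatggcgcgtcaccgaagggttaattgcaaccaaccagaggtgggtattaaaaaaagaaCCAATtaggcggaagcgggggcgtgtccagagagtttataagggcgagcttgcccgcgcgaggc
CCAAT on either strand occurred in 13 of the 31 repair gene promoters found in the table (250 bases before to 50 after the start), 41.9%, beside 37.5% of all 33469 promoters, a similar share. H2afx and Xrcc3 each had 4 copies before the start, and the other 29 promoters 0 to 2. Prkdc, Nbn, Mdc1, Chek2, Blm and Xrcc2 had no entry.

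The genes that read and extend that mark did not pass the test. Mdc1, the adaptor that binds phosphorylated H2AX, ranged from 8.81 to 21.3 CPM in Sirt6-Ctrl and from 16.6 to 21.9 CPM in Sirt6-KD, with a log2 fold change of 0.55 (interval −0.05 to 1.16). Rnf168, the ubiquitin ligase that modifies histone H2A to recruit 53BP1, was at 18.8, 34.8, 17.9 and 19.95 CPM against 10.4, 16.5, 18.8 and 15.3 CPM. S2 was far above the rest, and the log2 fold change of −0.58 ± 0.27 did not pass (edgeR adjusted p = 0.147). Rnf8, the ligase acting just before it, ranged from 13.2 to 24.7 and from 14.6 to 19.7 CPM (−0.19, interval −0.69 to 0.31). The log2 fold changes shrank to 0.23 for Mdc1 and −0.30 for Rnf168 without S1 and S2, and that of Rnf8 turned to 0.14.

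Among the checkpoint kinases, Atr had the smallest p. ATR responds to single-stranded DNA at stalled forks and resected ends, and activates CHK1. Atr was at 8.94, 12.5, 8.71 and 10.5 CPM in Sirt6-Ctrl and at 16.2, 14.8, 17.3 and 12.8 CPM in Sirt6-KD. No library overlapped, though S2 and S8 lay next to each other, and the log2 fold change was 0.59 ± 0.22 (edgeR adjusted p = 0.0763). It was called by DESeq2 (0.61, adjusted p = 0.0210) and, by edgeR, without S2 (0.72, adjusted p = 0.0284). It was 0.68 without S1 and S2 (adjusted p = 0.0563 by edgeR), and the span correction took it to 0.04 (adjusted p = 0.939 by edgeR). Atm, the kinase that answers double-strand breaks, was at 17.8, 29.2, 19.2 and 17.1 against 20.9, 15.1, 27.0 and 15.8 CPM. Its groups interleaved fully, with a log2 fold change of −0.08 ± 0.25 (interval −0.64 to 0.48) that changed sign under several alternatives. Chek2, the effector of ATM, was at 4.999, 3.928, 2.502 and 7.757 against 3.88, 4.03, 2.45 and 2.99 CPM (−0.52 ± 0.43). S1 and S4 lay above all Sirt6-KD libraries, and S4 was the furthest. Chek1, the effector of ATR, was at 311 to 405 CPM in Sirt6-Ctrl and 376 to 450 CPM in Sirt6-KD, with a log2 fold change of 0.16 (interval −0.13 to 0.45). Leaving out S1 and S2 gave 0.13 for Atm, −0.61 for Chek2 and 0.09 for Chek1.

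In end resection and dissolution, Blm, the helicase that unwinds ends and separates crossed strands, was at 8.88, 10.1, 6.74 and 3.98 CPM in Sirt6-Ctrl and at 13.9, 12.8, 10.3 and 10.2 CPM in Sirt6-KD. The groups did not overlap, with S2 just below S8. The log2 fold change was 0.67 ± 0.31 with all libraries (edgeR adjusted p = 0.150) and 1.15 without S1 and S2, where it was called (adjusted p = 0.0338). It was 0.45 without S4 (adjusted p = 0.248 by edgeR), and the span correction took it to 0.11 (adjusted p = 0.862 by edgeR). Exo1, an exonuclease of long-range resection that is made mostly in cycling cells, had 12, 1, 25 and 69 reads in S1 to S4, or 0.34, 0.03, 0.74 and 1.67 CPM, and 1.10, 0.84, 1.59 and 1.27 CPM in S5 to S8. At those counts its interval ran from −1.31 to 2.87, and its log2 fold change went from 0.78 to 0.00 without S1 and S2. Rbbp8, which encodes CtIP and starts resection, was stable at 20.8 to 27.6 and 20.2 to 25.0 CPM (−0.13, interval −0.50 to 0.24, and −0.05 without S1 and S2).

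**Figure D3:**
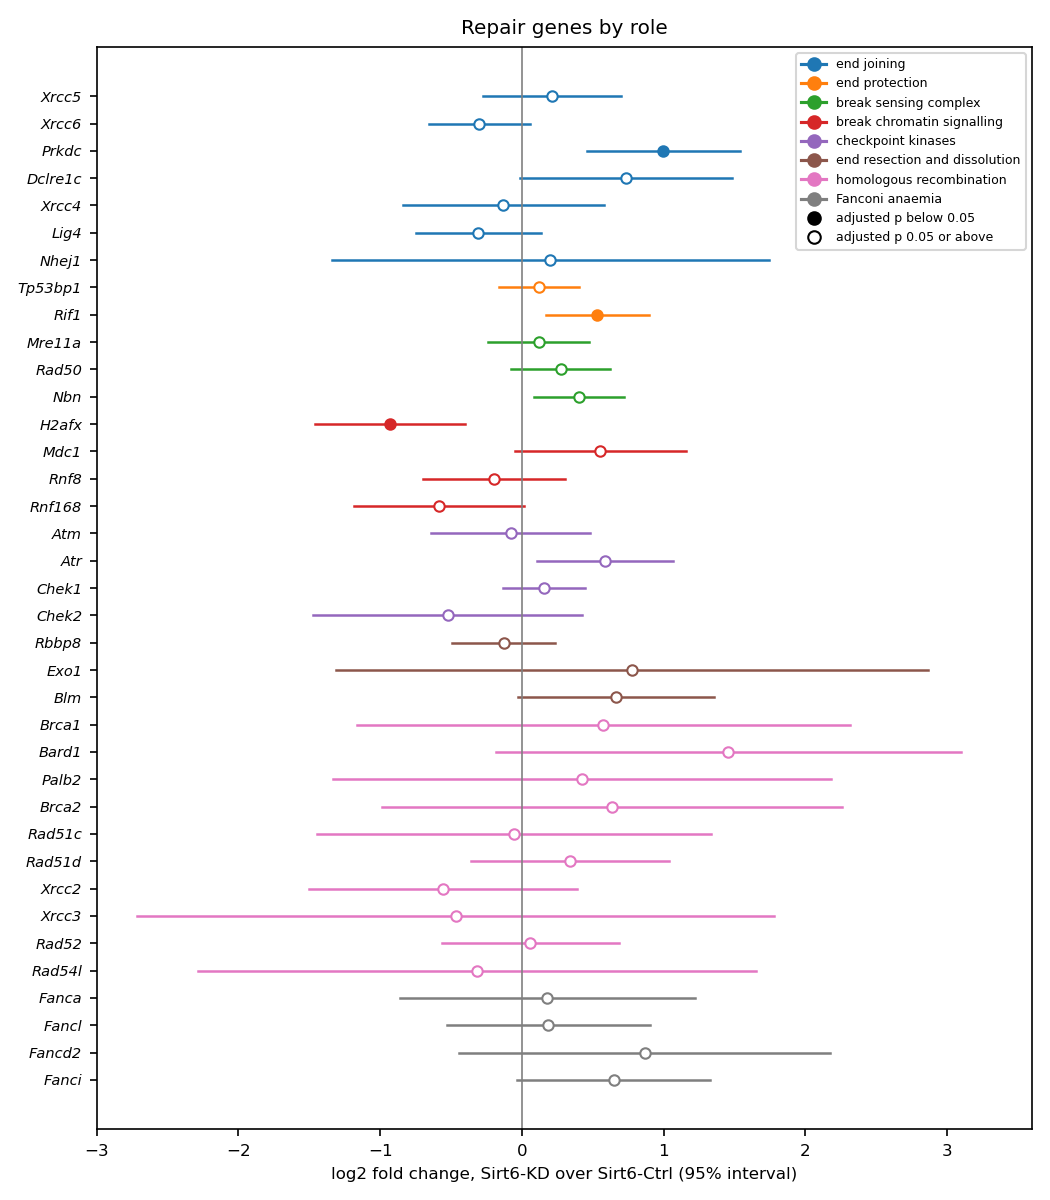
Points are log2 fold changes of Sirt6-KD over Sirt6-Ctrl with 95% intervals for the 37 repair genes, coloured by role and filled where the adjusted p was below 0.05. Prkdc, Rif1 and H2afx are filled, and the widest intervals are those of Xrcc3 (−2.71 to 1.78) and Exo1 (−1.31 to 2.87).

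None of the 10 homologous recombination genes passed the test. The 95% interval reached a 2-fold change in at least 1 direction for 9 of them and in both directions for 5, against 3 and 1 of the 7 end joining genes. Their median SE was 0.74, against 0.24 for the 7 end joining genes and 0.27 for all genes. Bard1, the obligate partner of Brca1, had the largest fold change of the 37 and the smallest p of this role. It was at 0.89, 0.12, 1.30 and 2.69 CPM in Sirt6-Ctrl and at 4.17, 2.66, 2.92 and 4.05 CPM in Sirt6-KD. Only S4 crossed S6, and the log2 fold change was 1.46 ± 0.74 (edgeR adjusted p = 0.183), and 0.80 without S1 and S2 (adjusted p = 0.249). Xrcc2, a homologous recombination factor, was at 6.15, 13.7, 6.65 and 4.92 against 3.502, 3.375, 7.951 and 6.51 CPM, with S2 highest and a log2 fold change of −0.56 ± 0.43, which was −0.11 without S1 and S2. Brca1, Brca2 and Palb2, which act together after the ends are resected, had log2 fold changes of 0.58, 0.64 and 0.43 with intervals of −1.17 to 2.32, −0.98 to 2.26 and −1.33 to 2.18. Brca1 held 2.39, 0.09, 3.86 and 5.75 CPM in Sirt6-Ctrl against 3.79 to 5.03 CPM in Sirt6-KD, and without S1 and S2 its log2 fold change was −0.08, that of Palb2 −0.08 and that of Brca2 0.76.

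The other homologous recombination genes showed no common direction. Rad51c had a log2 fold change of −0.06, Rad51d 0.34 and Xrcc3 −0.47. Rad52, the strand annealing factor, was at 7.71 to 14.2 and 8.63 to 14.6 CPM (0.06, interval −0.56 to 0.68), the narrowest interval of the role. Rad54l, a DNA-dependent motor protein, ran from 0.09 to 5.47 CPM in Sirt6-Ctrl and from 1.14 to 2.74 CPM in Sirt6-KD (−0.32, interval −2.28 to 1.65). Without S1 and S2 the log2 fold changes were −0.27 for Rad51c, 0.56 for Rad51d, −0.12 for Xrcc3, 0.41 for Rad52 and −0.02 for Rad54l.

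All 4 Fanconi anaemia genes had positive log2 fold changes, with a median of 0.42, and none passed. Fancd2 was at 1.81, 0.77, 6.62 and 6.79 CPM in Sirt6-Ctrl and at 7.03, 7.71, 7.20 and 7.25 CPM in Sirt6-KD. The groups did not overlap, but S3 and S4 were next to the Sirt6-KD libraries and S1 and S2 far below, and the log2 fold change of 0.87 ± 0.59 became 0.13 without S1 and S2. Fanci, its partner in the clamp, was at 5.57, 8.57, 14.5 and 14.9 against 16.1, 18.6, 18.1 and 15.5 CPM, again with S1 and S2 lowest. Its log2 fold change of 0.65 ± 0.31 (edgeR adjusted p = 0.153) became 0.23 without them. Fanca, of the core complex, ranged from 1.47 to 3.25 and from 2.18 to 2.90 CPM (0.18, interval −0.86 to 1.22). Fancl, the ubiquitin ligase of that complex, ranged from 4.11 to 5.84 and from 4.15 to 7.08 CPM (0.19, interval −0.53 to 0.91). These were 0.11 for Fanca and 0.03 for Fancl without S1 and S2.

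Set side by side, the roles differed in median log2 fold change, described here with no test. The median was 0.20 for end joining, 0.20 for homologous recombination, 0.42 for Fanconi anaemia, 0.04 for the checkpoint kinases, 0.33 for end protection, 0.27 for break sensing, −0.39 for chromatin signalling and 0.67 for resection and dissolution. Without S1 and S2 end joining kept 0.16 and break sensing 0.26, while homologous recombination went to −0.05, Fanconi anaemia to 0.12, chromatin signalling to −0.08 and resection and dissolution to 0.00.

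Genes of mitosis were low in the same libraries. Their summed level over the 15 tested was 36.3, 49.98, 123 and 192 CPM in S1 to S4 and 223 to 247 CPM in S5 to S8 (p = 0.0286 by an exact permutation test, two-sided, the smallest that 4 libraries against 4 allow). The 4 Fanconi anaemia genes summed to 14.5, 15.1, 27.8 and 30.7 CPM in S1 to S4 and 30.4 to 35.5 CPM in S5 to S8, while the end joining sum was 97.1 to 108 against 102 to 125 CPM. The homologous recombination sum did not follow that order, at 39.3, 44.7, 34.8 and 38.6 CPM in S1 to S4 and 40.6 to 49.0 CPM in S5 to S8. S2 was the highest control and S3 the lowest. In S2 this sum came mainly from Rad52, Xrcc2, Rad51d and Rad54l, at 14.2, 13.7, 9.12 and 5.47 CPM. Brca1, Bard1, Palb2, Brca2 and Xrcc3 were at 0.03 to 0.19 CPM in S2, so single recombination genes went both ways there. The 18 DNA replication genes summed to 340 to 409 against 406 to 443 CPM (p = 0.0571 by an exact permutation test, two-sided). Of these lists Mki67, Cenpf and Mcm2 rose and Gins2 fell. The part of cycling cells in the repair gene results was not tested. Without S1 and S2 the median log2 fold change of the mitosis genes went from 1.01 to 0.39. In that fit 3 of the 15 were called higher, beside 810 of 14177 genes tested. With all libraries 2 of the 15 were called higher, beside 8.02% of all genes.

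**Figure D4:**
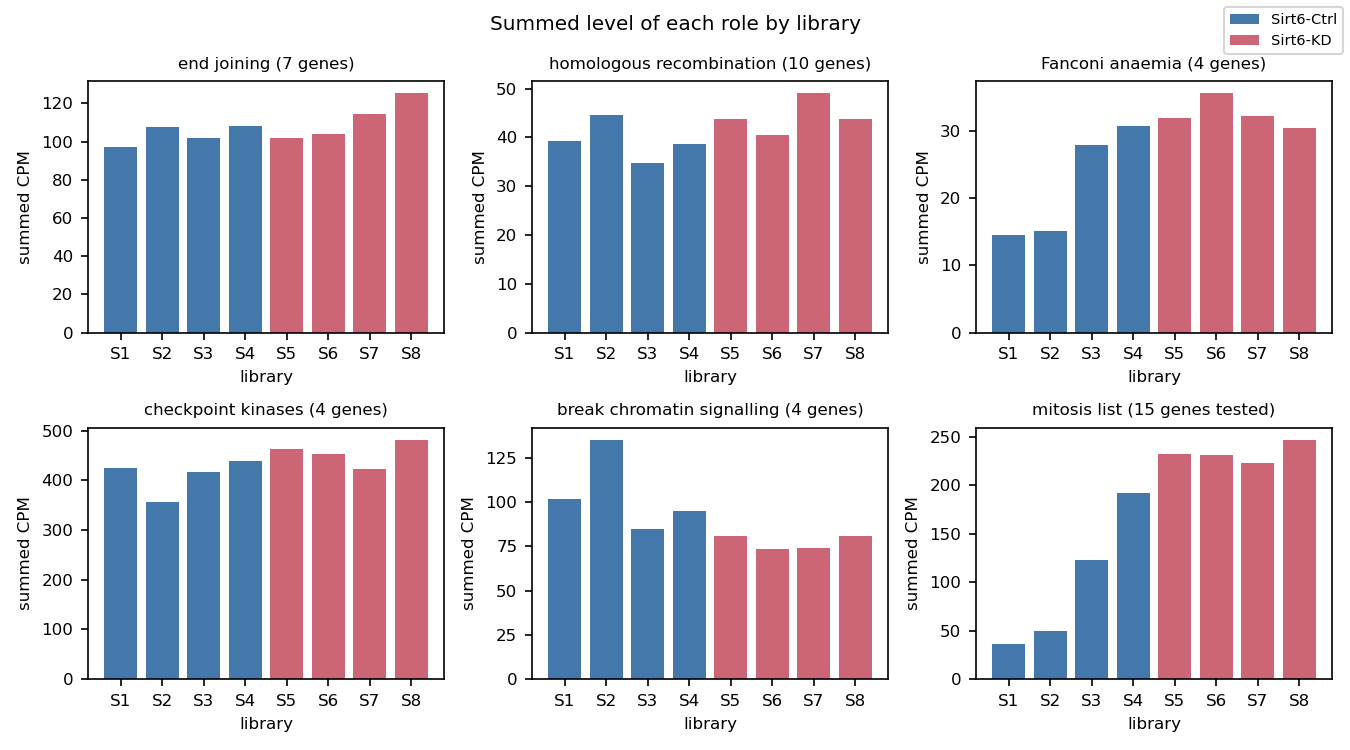
Bars are summed CPM per library, from 0, for the end joining, homologous recombination, Fanconi anaemia, checkpoint kinase and chromatin signalling genes and for the mitosis list. The Fanconi anaemia and mitosis sums are lowest in S1 and S2 (14.5 and 15.1 CPM, and 36.3 and 49.98 CPM), and the end joining sum is level across libraries.

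Ratios of counts between partner genes, with 0.5 added to each count, do not depend on the scaling between libraries. Of 15 such pairs 1 gave groups that did not overlap, Atm over Atr. Beside it, 14.8% of single genes tested lay wholly higher and 15.6% wholly lower in Sirt6-KD. No such share was computed for pairs. The ratio of Atm to Atr counts was 1.99, 2.34, 2.20 and 1.63 in S1 to S4 and 1.29, 1.02, 1.56 and 1.23 in S5 to S8. The mean shift towards Atr in Sirt6-KD was 0.68 on the log2 scale, and 0.59 without S1 and S2. Prkdc over Xrcc5 was 0.33 to 0.58 in Sirt6-Ctrl and 0.57 to 0.88 in Sirt6-KD, where only S2 and S8 crossed, a log2 difference of 0.81, and 0.91 without S1 and S2. H2afx over Mdc1 was 4.38, 7.56, 1.33 and 3.78 in Sirt6-Ctrl against 1.11 to 1.35 in Sirt6-KD. S3 alone lay in the Sirt6-KD range, and the log2 difference was −1.50 with and −0.82 without S1 and S2.

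The other pairs overlapped between the groups. The log2 difference of Xrcc5 over Xrcc6 was 0.54 with and 0.087 without S1 and S2. Rad50 over Mre11a was 1.22 to 2.07 against 1.42 to 2.05. Fancd2 over Fanci was 0.33, 0.09, 0.46 and 0.46 in S1 to S4 and 0.40 to 0.47 in S5 to S8, so the 2 libraries S3 and S4 matched Sirt6-KD. Tp53bp1 over Brca1, the opposed regulators of resection, was 10.6 to 26.1 in S1, S3 and S4, 512 in S2 and 12.1 to 18.3 in Sirt6-KD, where the outlying value rests on 3 reads of Brca1.

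**Figure D5:**
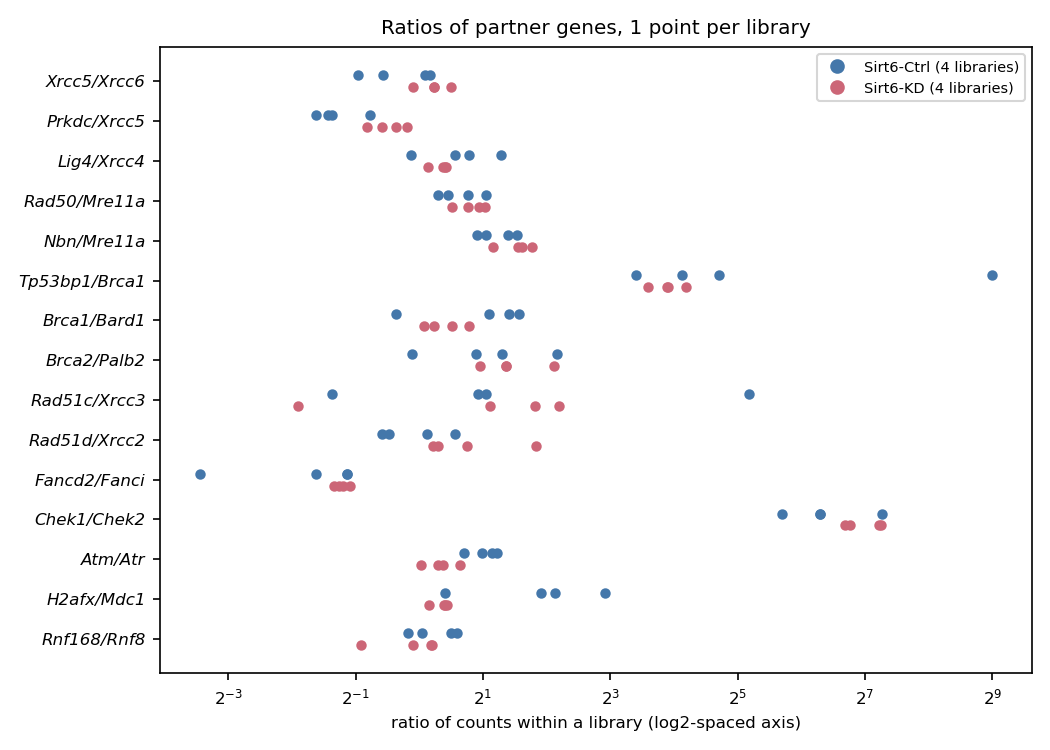
Ratios of counts within a library for 15 pairs of partner genes, 1 point per library, Sirt6-Ctrl above and Sirt6-KD below, on a log2-spaced axis. The Atm over Atr points separate (1.63 to 2.34 against 1.02 to 1.56), and the far right point of Tp53bp1 over Brca1 is S2.

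The upstream sequences of Rif1 and Atr are shown as examples of genes whose Sirt6-KD and Sirt6-Ctrl levels did not overlap, with CCAAT on either strand in capitals. Fancd2 and Fanci did not overlap either and held 0 copies before the start, so they are not printed, and Prkdc and Blm had no entry. Rif1 is read from GRCr8 chr3:56963604-56963853, plus strand, and Atr from chr8:105306072-105306321, plus strand:
Rif1: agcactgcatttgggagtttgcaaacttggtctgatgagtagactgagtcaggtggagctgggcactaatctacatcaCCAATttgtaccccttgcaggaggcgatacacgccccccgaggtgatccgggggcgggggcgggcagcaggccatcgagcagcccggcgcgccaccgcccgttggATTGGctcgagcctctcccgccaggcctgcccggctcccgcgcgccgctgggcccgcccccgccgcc
Atr: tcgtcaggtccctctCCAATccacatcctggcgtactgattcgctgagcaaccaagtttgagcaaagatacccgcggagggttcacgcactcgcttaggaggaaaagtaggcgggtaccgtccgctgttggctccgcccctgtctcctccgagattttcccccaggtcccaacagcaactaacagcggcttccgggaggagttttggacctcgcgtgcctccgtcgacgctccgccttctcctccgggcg
Rif1 holds 2 copies and Atr 1.

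The letters TTTCCCGC, TTTGGCGC and TTCCCGCC, forms of the site that E2F factors are known to bind in genes of the S phase, were searched on both strands of the 31 promoters. They are shown because 7 of the 31 promoters (22.6%) held at least 1 of them, beside 5.67% of the promoters of genes tested and 2.90% of all promoters in the table. TTTCCCGC was in 6 (19.4%, beside 2.02% of the promoters of genes tested and 0.97% of all) and TTCCCGCC in 4 (12.9%, beside 3.77% and 1.91%), with 7 bases shared where both matched at 1 place, and TTTGGCGC was in 0. Each window below is 30 bases of GRCr8 with the matched letters in capitals. They lie at chr10:38362178-38362207 (Rad50, minus strand), chr8:62828850-62828879 (Atm, minus), chr8:44629854-44629883 (Chek1, minus), chr9:80143942-80143971 (Bard1, minus), chr10:68321898-68321927 (Rad51d, minus), chr14:104450907-104450936 and chr14:104451007-104451036 (Fancl, plus) and chr4:148234706-148234735 (Fancd2, plus):
Rad50: aggtcaactgaGGCGGGAAtctgcgagctt
Atm: gatccgtgcacGCGGGAAAaggcgaagcga
Chek1: aagcaggttttGGCGGGAAAagctgtgcac
Bard1: gtgccgctctgTTTCCCGCtcaggaagttt
Rad51d: acctgcatcctTTTCCCGCCccctcgtccc
Fancl, upstream: ggtctccagacTTCCCGCCaacctgggttt
Fancl, downstream: aacctgttgcgccaTTTCCCGCtgctgctt
Fancd2: gcgtccgacaaGCGGGAAAgtcgaaaacga
These 7 genes come from 4 roles. Their log2 fold changes were 0.27 (Rad50), −0.08 (Atm), 0.16 (Chek1), 1.46 (Bard1), 0.34 (Rad51d), 0.19 (Fancl) and 0.87 (Fancd2), and none passed the test. TTTGAA was in 16.1% of the 31 promoters and TTTAAA in 19.4%, beside 11.8% and 8.93% of the promoters of genes tested and 18.4% and 13.6% of all.

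Some of these genes share the start region with a gene on the opposite strand. Within 1000 bases of the start, 11 had such a neighbour and 8 of the neighbours were tested, of which 6 had a negative log2 fold change, beside 6739 of the 13250 genes tested, and 2 were called lower, beside 10.7% of all genes. Dctn5, a dynactin subunit that starts 300 bases from Palb2, fell (−0.85, adjusted p = 0.00678 by edgeR), and Zfyve21, 329 bases from Xrcc3, fell too (−0.63, adjusted p = 0.0319). Emc3 starts 113 bases from Fancd2, with a log2 fold change of −0.40 against 0.87 for Fancd2. Emc3 passed the test without reaching the fold threshold (adjusted p = 0.0495 by edgeR). So did Tmem167a, 214 bases from Xrcc4 (−0.52, adjusted p = 0.0329 by edgeR). Npat, a histone gene coactivator that starts 556 bases from Atm, had 0.17 against −0.08 for Atm, which turned to 0.13 without S1 and S2. The distances come from GRCr8, a later build than the Rnor_6.0 of the counts.

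Outside the 37, the rest of the pathway was listed as 62 genes, of which 57 were tested. Of these 3 were called higher and 2 lower, beside the 8.02% and 10.7% of all genes. Hus1, of the clamp that switches ATR on, went from 15.8 ± 2.90 to 26.7 ± 4.38 CPM (log2 fold change 0.76 ± 0.21, edgeR adjusted p = 0.0268). Wee1, the kinase that holds cells before mitosis, rose from 9.23 ± 3.06 to 17.2 ± 1.74 CPM (0.90 ± 0.27, adjusted p = 0.0370 by edgeR). Wrn, a helicase related to Blm, rose from 11.6 ± 2.47 to 21.1 ± 1.33 CPM (0.86 ± 0.20, adjusted p = 0.0162 by edgeR). Brcc3, a deubiquitinase of the Brca1-A complex at breaks, fell from 44.4 ± 5.50 to 28.5 ± 4.52 CPM (−0.64 ± 0.17, adjusted p = 0.0227 by edgeR). Swi5, a recombination factor, fell from 145 ± 29.0 to 80.3 ± 11.6 CPM (−0.85 ± 0.17, adjusted p = 0.00950 by edgeR). The groups of all 5 did not overlap. In S1 to S4 Wee1 was at 5.92, 7.42, 12.4 and 11.2 CPM and Wrn at 9.83, 9.96, 15.1 and 11.4 CPM, lowest in S1 and S2. Swi5 was highest in S1 and S2, at 169 and 160 CPM. Hus1 and Brcc3 did not set S1 and S2 apart from S3 and S4 in this way. No fit without S1 and S2 is given for these 5 genes.

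Gene span moved with the fold change. Over the 37 repair genes Spearman's correlation of log2 fold change with span was 0.32, and over 11827 genes tested it was 0.34, given as a description since genes of these libraries share depth and composition. The repair genes are long, with a median span of 51954 bases beside 25006 over those genes. Corrected for span in each library, the median log2 fold change of the repair genes was −0.16 and that of all genes was also −0.16. The part of span in the results was not tested further. By position, at least 14 of the 37 overlap a gene of the other strand in GRCr8, among them Tp53bp1, Mre11a, Atm, Atr, Xrcc3 and Rad52. Strands could be compared only for the 31 genes with a promoter entry, so Prkdc, Nbn, Mdc1, Chek2, Blm and Xrcc2 were not assessed. Prkdc, Dclre1c, Xrcc4, Nhej1, Rbbp8 and Xrcc2 each overlap a gene or pseudogene whose strand was not compared. For Prkdc it is a pseudogene, over 6403 bases. Atr, Brca2 and Fanca, already among the 14, have such an overlap too. These overlaps are of whole gene spans, as short as 20 bases for Rad54l, and overlap of exons was not assessed. Since the strand setting of the counting is not given in the sources used here, any reads from shared bases cannot be told apart.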

How the data were processed

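RNA of the 8 libraries was sequenced by Azenta. For each Ensembl gene and ERCC spike-in the authors deposited the raw count, not normalized, and the submitters' processing notes name Trimmomatic 0.36, STAR 2.5.2b, featureCounts (Subread 1.5.2), DESeq2 and the build Rnor_6.0. A table that the authors deposited, with normalized signal (counts over 1 size factor per library), the log2 fold change of their own comparison and its p-value, was used for gene names only. Low counts were removed with filterByExpr of edgeR 4.0.16 (R 4.3.3), libraries were normalised by TMM with spike-in rows kept in the fit and out of gene counts, and Sirt6-KD was compared with Sirt6-Ctrl by the two-sided quasi-likelihood test, with p-values adjusted by Benjamini-Hochberg across every row tested. Called means an adjusted p below 0.05 and a fold above 1.5, the thresholds of the study. SE is the log2 fold change over the square root of F. Alternatives used DESeq2 1.42.0 and limma 3.58.1. All adjusted p-values come from these fits across all genes. The test was also run on simulated counts in which both groups had the same spread for a gene. In the data Sirt6-Ctrl varied more for 86.0% of all genes. That run therefore cannot show how the test behaves under such unequal spread.

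The repair genes, their roles and the other lists were chosen with earlier results of these data known. Full values were given for genes called, genes whose groups did not overlap and the 2 of smallest p in each role, with ranges for the rest. Promoters came from RefSeq tables of GRCr8, matched by symbol (Mre11a as Mre11, H2afx as H2ax, which RefSeq also gives as a synonym of its neighbour) for 31 of 37. A library of this depth puts 3 counts at 0.0727 to 0.0927 CPM. Counting error was not separated from the spread between libraries for single genes. No 2 libraries agreed within sampling noise.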

Additional observations from a re-analysis of the deposited data

Results flagged for a closer look

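Among 74 sets of 4 libraries (37 genes in each group), 2 held a library far from the other 3, where chance gives about 1 in 20, or 3.7. Prkdc in Sirt6-Ctrl was lowest in S1, with a gap of 0.897 of the range of the group. Rnf168 in Sirt6-Ctrl was highest in S2, with a gap of 0.879 of the range.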

How the results depend on the processing

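No paired analysis was possible because no label ties a Sirt6-KD library to the Sirt6-Ctrl library of its rat. Counts of all genes called higher were 22 with spike-in scaling, 92 with glmTreat, 241 at an adjusted p below 0.01, 625 after correction for gene span and 445 to 1699 with 1 library left out. Counts called lower were 4, 185, 485, 709 without S1 and S2, and 700 to 1913 with 1 library left out. Repair genes called higher numbered 0 with spike-in scaling, glmTreat, an adjusted p below 0.01 or the span correction, 2 with DESeq2 (Prkdc and Atr), with quality weights or without S1 and S2 (Prkdc and Blm), 2 with no fold threshold (Prkdc and Rif1), and 0 to 3 with 1 library left out. H2afx was not called (0 repair genes lower) with spike-in scaling, glmTreat, an adjusted p below 0.01, the span correction or without S1 and S2, and 0 to 1 were called lower with 1 library left out. The median log2 fold change of the repair genes was 1.07 with spike-in scaling and −0.16 with the span correction. Spike-in scaling turned H2afx to 0.20, Rnf168 to 0.55, Atm to 1.01, Chek2 to 0.36 and Xrcc2 to 0.69, each of which lay below the median of all genes there except Atm. The span correction turned Tp53bp1 to −0.40 and Rad50 to −0.040. Atm turned to 0.030 with quality weights and 0.13 without S1 and S2, and ran from −0.27 to 0.14 with 1 library left out. The cause of these changes was not tested. RLE and upper-quartile factors, removal of spike-in rows, both other count filters and limma-voom kept every call and direction of the 17 genes given in full. Levels per coding length were not run, since no protein or coding lengths were used here. Low counts limit genes such as Exo1, Xrcc3, Palb2, Bard1 and Rad54l, which lay under 1 CPM in at least 1 library. S1 and S2 were not the shallowest libraries, at 36180666 and 38506289 counts.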
